A study of Homo sapiens with 8 samples.

Results

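The 8 genes described here, CLDN1, CLDN4, CLDN7, OCLN, MARVELD2, F11R, TJP1 and CGN, encode structural proteins of the epithelial tight junction. They were taken by name, and all 8 symbols were found among the 13771 genes of the deposited table. Transcripts were measured by RNA-seq in 8 libraries, 2 for each of 4 groups of cultured human cells. MCF10A is an established non-tumorigenic breast epithelial line, and the related DCIS.COM line is labelled as ductal carcinoma in situ (DCIS). In both lines the cells had been stably transduced with a lentiviral pCDH vector and selected with puromycin. The vector was either empty (pCDH-empty) or carried HOTAIR (pCDH-HOTAIR), a long noncoding RNA transcribed from the HOXC cluster, so the control cells also carried a vector and had passed through the selection. MCF10A medium held epidermal growth factor, hydrocortisone, insulin and cholera toxin besides horse serum, and DCIS.COM medium held horse serum without these additives, so cell line and medium cannot be told apart. The labels do not say whether the 2 libraries of a group came from separate cultures, so the p-values measure the spread between these libraries, which may be technical.

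Levels are log2 CPM, the logarithm of read counts scaled to the depth of the library. HOTAIR had 45 and 40 reads in MCF10A pCDH-empty, 4614 and 4827 in MCF10A pCDH-HOTAIR, 119 and 140 in DCIS.COM pCDH-empty, and 7166 and 6385 in DCIS.COM pCDH-HOTAIR, in the order the labels give. Library totals ran from 19306864 to 34884841 reads. The 8 tight junction genes had between 274 and 15759 reads in any library, so counting error alone was at most 6.04% of a value. The pair of DCIS.COM pCDH-empty libraries stood apart from the other pairs, with a median absolute difference of 0.21 log2 units between its 2 libraries over all genes against 0.06 to 0.08 in the other 3 groups. Basal epithelial markers (KRT5, KRT14, KRT17 and TP63, 4 of 4 in the table) summed to 8927 to 10205 CPM in MCF10A and 1244 to 1578 CPM in DCIS.COM. The keratins made up most of this sum, and TP63 alone went the other way, higher in DCIS.COM by 0.75 log2 units with the empty vector and 0.77 with the HOTAIR vector. Luminal or simple-epithelial markers (KRT8, KRT18, KRT19 and EPCAM, 4 of 4) summed to 1204 to 1269 CPM in MCF10A and 4607 to 5976 CPM in DCIS.COM. CDH1, encoding E-cadherin of the neighbouring adherens junction, was at 393 to 458 CPM in MCF10A and 270 to 294 CPM in DCIS.COM. Of 3 haematopoietic markers only CD14 was in the table, at 371 to 739 reads in MCF10A and 20 to 43 in DCIS.COM, 22.3-fold and 17.6-fold lower in DCIS.COM with the empty and the HOTAIR vector. Of 3 endothelial markers only PECAM1 was in the table, at 34 to 84 reads in MCF10A and 339 to 423 in DCIS.COM, 4.99-fold and 5.89-fold higher. These differences in TP63, CD14 and PECAM1 passed the limma thresholds described further on. None of 4 fibroblast markers was in the table. The part of these marker differences in the results below was not tested.

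Tight junctions form a belt around the apical end of the lateral membrane of epithelial cells, where they seal the space between neighbours and separate the apical from the basolateral surface. Claudins are four-pass membrane proteins whose extracellular loops make the seal and its selective pores. Occludin (OCLN) and tricellulin (MARVELD2) are membrane proteins with a MARVEL domain, and tricellulin sits where 3 cells meet. Junctional adhesion molecule A (F11R) is a single-pass adhesion receptor of the immunoglobulin superfamily. On the cytoplasmic side, the PDZ-domain scaffold ZO-1 (TJP1) ties the membrane proteins to actin, and cingulin (CGN) links the plaque to actomyosin. Transcription factors of the Snail and ZEB families bind E-box sequences and can repress epithelial junction genes, and Grainyhead-like factors can activate them.

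In GRCh37 coordinates CLDN1 lies at chr3:190023496-190040235, CLDN4 at chr7:73213872-73247020, CLDN7 at chr17:7163222-7167302, F11R at chr1:160965001-160991133 and CGN at chr1:151482986-151511168. MARVELD2 at chr5:68710892-68740157 and OCLN at chr5:68788119-68853931 are near each other on chromosome 5, and TJP1 lies at chr15:29991571-30261118. The end of ELP5, on the other strand, overlaps the end of CLDN7, the small nucleolar RNA gene SNORA44 lies on the other strand within CGN, and readthrough or antisense transcripts are annotated over CLDN7, OCLN, F11R and TJP1. Whether counting used strand was not stated, so the source of reads in these overlaps is uncertain. OCLN also has a near-identical partial copy, the pseudogene OCLNP1 at chr5:70370052-70389020. OCLNP1 had 37 to 61 reads in MCF10A and 117 to 152 in DCIS.COM, against 311 to 527 and 1004 to 1147 for OCLN, so reads could have been divided between the copies.

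RefSeq promoter entries, 250 bases before to 50 bases after an annotated start, were available for 7 of the 8 genes (12 entries, table built on GRCh38.p14 and each matched exactly once to GRCh37). The E-box CACCTG or its reverse complement CAGGTG, counted as 1 motif on both strands, was present in 4 of these 12 entries, belonging to OCLN, TJP1 and CLDN7, and in 20.592% of 35116 RefSeq entries of the same length. The palindromic Grainyhead-like motif AACCGGTT was in none of the 12 entries and in 0.134% of all entries. The following windows of 30 bases, from these 3 genes, show the motif that Snail and ZEB factors recognise, because the transcripts of those factors differ between the lines (described further on). Sequences run 5′ to 3′ on the strand of the gene, and capitals mark the motif.
OCLN, chr5:68788329-68788358, plus strand: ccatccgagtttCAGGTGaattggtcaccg
TJP1, chr15:30261323-30261352, minus strand: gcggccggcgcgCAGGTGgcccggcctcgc
CLDN7, chr17:7165800-7165829, minus strand: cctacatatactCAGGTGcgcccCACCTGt
The OCLN window lies 45 to 16 bases before the start of 1 RefSeq entry and in the 5′ untranslated exon of 1 longer coding transcript of GENCODE, upstream of the MANE Select transcript. The TJP1 window lies 100 to 71 bases before the most distal start and in no annotated transcript. The CLDN7 window lies 32 to 3 bases before the MANE Select start, in an intron of 3 longer coding transcripts and an untranslated exon of 1, and holds 2 copies of the motif. A match of these letters is a description of the window and does not show binding.

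To learn how the junction transcripts differ between the normal and the DCIS line, DCIS.COM was compared with MCF10A within each vector, and to learn what HOTAIR changed, pCDH-HOTAIR was compared with pCDH-empty within each line. Calls required a limma p below 0.05 after Benjamini-Hochberg adjustment over all 13771 genes, together with at least a 1.5-fold difference. Between the lines, CLDN4 and OCLN were higher in DCIS.COM with either vector, CLDN4 by 4.90-fold and 6.07-fold and OCLN by 2.05-fold and 2.03-fold. With the HOTAIR vector F11R and CGN were also called higher and TJP1 called lower in DCIS.COM. These genes differed in the same direction with the empty vector (limma adjusted p from 0.000205 to 0.00739), under the fold threshold. The change of the line difference from the empty to the HOTAIR vector did not pass the adjusted threshold. That change was 0.17 for F11R, 0.28 for CGN and -0.17 for TJP1 (limma adjusted p = 0.501, 0.498 and 0.597). HOTAIR overexpression changed none of the 8 genes past the thresholds in either line.

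**Figure D1:**
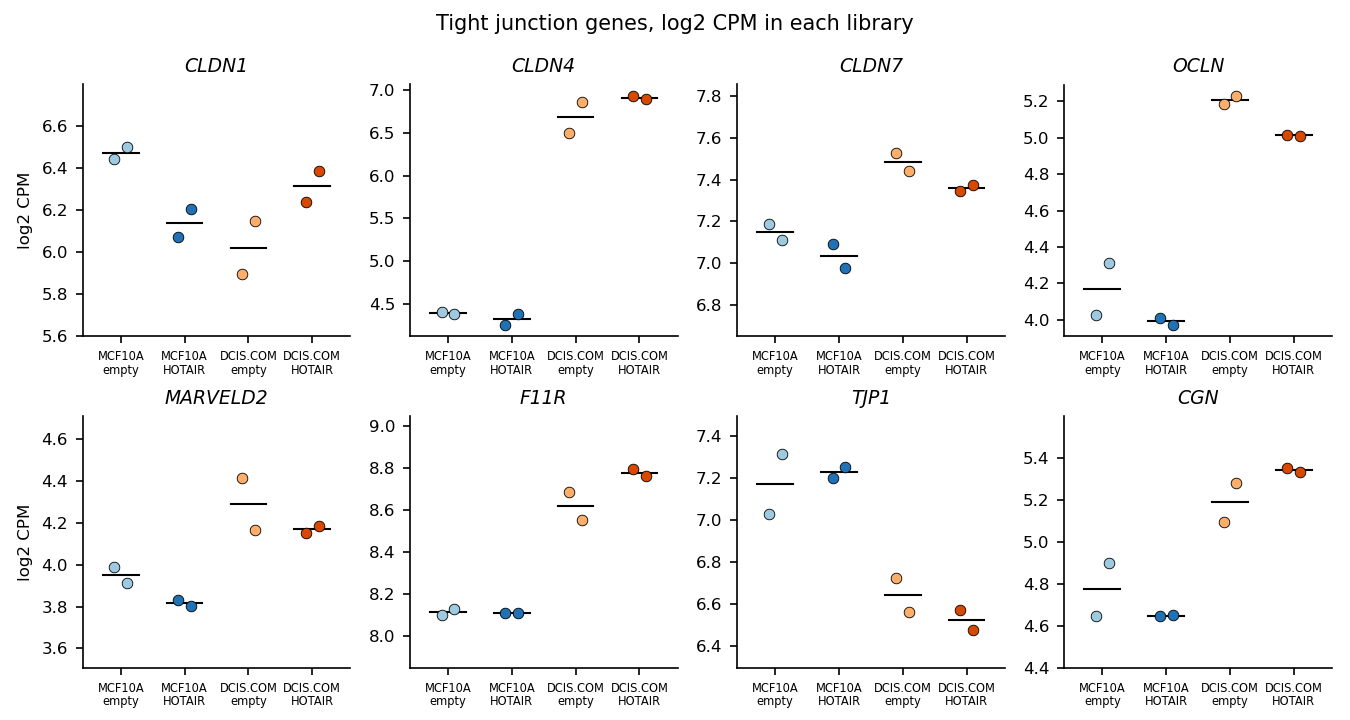
Level of each of the 8 tight junction genes in log2 CPM (vertical axis, scaled separately for each gene) in the 4 groups. Each point is 1 library and each line the mean of the 2 libraries. For CLDN4 and OCLN all DCIS.COM points lie above all MCF10A points, and CLDN1 is the gene in which the vector groups of the 2 lines interleave.

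CLDN4, a claudin of tight epithelia, was at 4.40 and 4.38 log2 CPM in MCF10A pCDH-empty, 4.25 and 4.38 in MCF10A pCDH-HOTAIR, 6.50 and 6.87 in DCIS.COM pCDH-empty, and 6.93 and 6.90 in DCIS.COM pCDH-HOTAIR. All 4 DCIS.COM libraries lay above all 4 MCF10A libraries. With the empty vector CLDN4 was higher in DCIS.COM by 2.29 log2 units (SE 0.12, 4.90-fold, limma adjusted p = 8.23e-07), and with the HOTAIR vector by 2.60 (SE 0.12, 6.07-fold, adjusted p = 4.14e-07). This was a larger absolute difference than in 88.8% of all genes with the empty vector and 90.5% with the HOTAIR vector. In bulk RNA, fewer cells expressing a gene and less RNA per cell cannot be told apart, here or below.

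CLDN7, a claudin found along the whole lateral membrane of many epithelia, was at 7.19 and 7.11 log2 CPM in MCF10A pCDH-empty, 7.09 and 6.98 in MCF10A pCDH-HOTAIR, 7.53 and 7.44 in DCIS.COM pCDH-empty, and 7.35 and 7.37 in DCIS.COM pCDH-HOTAIR. Here too every DCIS.COM library exceeded every MCF10A library, but the distance was small. The difference between the lines was 0.33 log2 units with the empty vector (SE 0.07, 1.26-fold, limma adjusted p = 0.00274) and 0.32 with the HOTAIR vector (SE 0.07, 1.25-fold, adjusted p = 0.00341), under the fold threshold both times.

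CLDN1, a claudin required for the epidermal barrier, was at 6.44 and 6.50 log2 CPM in MCF10A pCDH-empty, 6.07 and 6.20 in MCF10A pCDH-HOTAIR, 5.89 and 6.14 in DCIS.COM pCDH-empty, and 6.24 and 6.38 in DCIS.COM pCDH-HOTAIR. The groups stood in another order than for the other claudins, with MCF10A pCDH-empty highest and DCIS.COM pCDH-empty lowest. With the empty vector CLDN1 was lower in DCIS.COM, at -0.45 log2 units (SE 0.10, 1.37-fold, limma adjusted p = 0.00399), under the fold threshold. With the HOTAIR vector the difference had the other sign, 0.17 (SE 0.10, adjusted p = 0.155), and did not pass. The libraries of MCF10A pCDH-HOTAIR and DCIS.COM pCDH-empty overlapped.

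OCLN, the first transmembrane protein assigned to tight junctions, was at 4.03 and 4.31 log2 CPM in MCF10A pCDH-empty, 4.01 and 3.97 in MCF10A pCDH-HOTAIR, 5.18 and 5.23 in DCIS.COM pCDH-empty, and 5.02 and 5.01 in DCIS.COM pCDH-HOTAIR. The 2 lines did not overlap. OCLN was higher in DCIS.COM by 1.04 log2 units with the empty vector (SE 0.10, 2.05-fold, limma adjusted p = 4.04e-05) and by 1.02 with the HOTAIR vector (SE 0.10, 2.03-fold, adjusted p = 4.58e-05). The pseudogene OCLNP1, which could share its reads, differed in the same direction, by 1.16 (SE 0.22, adjusted p = 0.00158) and 0.78 (SE 0.22, adjusted p = 0.0129).

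MARVELD2 was at 3.99 and 3.91 log2 CPM in MCF10A pCDH-empty, 3.83 and 3.80 in MCF10A pCDH-HOTAIR, 4.41 and 4.16 in DCIS.COM pCDH-empty, and 4.15 and 4.19 in DCIS.COM pCDH-HOTAIR. DCIS.COM pCDH-empty 1 was the highest library, while the other 3 DCIS.COM libraries lay between 4.15 and 4.19, still above MCF10A. The line difference was 0.34 with the empty vector (SE 0.10, 1.26-fold, limma adjusted p = 0.0187) and 0.35 with the HOTAIR vector (SE 0.10, 1.28-fold, adjusted p = 0.0164), under the fold threshold. With 1 library left out the limma adjusted p reached 0.101 with the empty vector (without MCF10A pCDH-empty 2) and 0.0888 with the HOTAIR vector (without DCIS.COM pCDH-HOTAIR 2), and without DCIS.COM pCDH-empty 1 the empty-vector difference was 0.21.

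F11R was at 8.10 and 8.13 log2 CPM in MCF10A pCDH-empty, 8.11 and 8.11 in MCF10A pCDH-HOTAIR, 8.69 and 8.55 in DCIS.COM pCDH-empty, and 8.79 and 8.76 in DCIS.COM pCDH-HOTAIR. The MCF10A libraries lay between 8.10 and 8.13, and the DCIS.COM libraries lay above them. F11R was higher in DCIS.COM by 0.50 with the empty vector (SE 0.07, 1.42-fold, limma adjusted p = 0.000205), under the fold threshold, and by 0.67 with the HOTAIR vector (SE 0.07, 1.59-fold, adjusted p = 3.96e-05), which was called.

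TJP1 was at 7.03 and 7.31 log2 CPM in MCF10A pCDH-empty, 7.20 and 7.25 in MCF10A pCDH-HOTAIR, 6.72 and 6.56 in DCIS.COM pCDH-empty, and 6.57 and 6.48 in DCIS.COM pCDH-HOTAIR. It was the only one of the 8 genes with all 4 DCIS.COM libraries below all 4 MCF10A libraries. The difference was -0.53 with the empty vector (SE 0.10, 1.44-fold lower, limma adjusted p = 0.00208), under the fold threshold, and -0.70 with the HOTAIR vector (SE 0.10, 1.63-fold lower, adjusted p = 0.000446), which was called. Without MCF10A pCDH-empty 1 or DCIS.COM pCDH-empty 1, the empty-vector difference of TJP1 also passed the fold threshold, at -0.67 and -0.61.

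CGN was at 4.65 and 4.90 log2 CPM in MCF10A pCDH-empty, 4.65 and 4.65 in MCF10A pCDH-HOTAIR, 5.09 and 5.28 in DCIS.COM pCDH-empty, and 5.35 and 5.33 in DCIS.COM pCDH-HOTAIR. The lines did not overlap. The difference was 0.42 with the empty vector (SE 0.10, 1.33-fold, limma adjusted p = 0.00739), under the fold threshold, and 0.69 with the HOTAIR vector (SE 0.10, 1.62-fold, adjusted p = 0.000485), which was called. The empty-vector difference did not pass without MCF10A pCDH-empty 1 (0.29, adjusted p = 0.0597) or after correction for GC content (0.28, adjusted p = 0.0584).

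Of the 8 genes, 2 were called with the empty vector, both higher in DCIS.COM, where 46.3% of all genes were called (22.5% higher and 23.8% lower). With the HOTAIR vector 5 were called, 4 higher and 1 lower, where 43.7% of all genes were called (22.0% higher and 21.7% lower). The median of the 8 log2 differences was 0.38 and 0.51 in these 2 comparisons, while the median over all genes was -0.00012 and 0.0035. All 8 genes had non-overlapping libraries between the lines with either vector, as had 81.6% of all genes with the empty vector and 89.2% with the HOTAIR vector. The counts of 2 and 5 of the 8 lay on either side of these backgrounds, and neither departure was tested. The 2 comparisons share no library but rest on 1 estimate of spread.

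**Figure D2:**
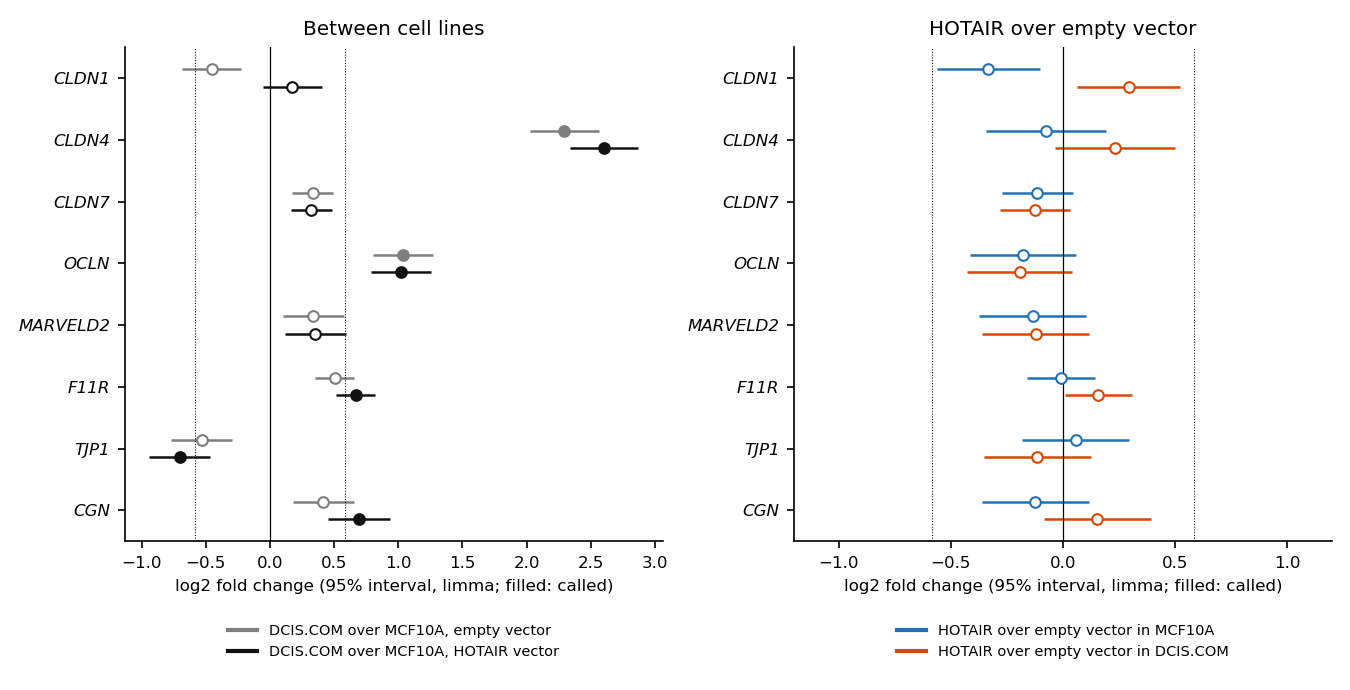
Log2 fold change of each gene with its 95% interval (limma), between the cell lines on the left and for HOTAIR over empty vector on the right. Filled points were called, and dotted lines mark the fold threshold of 1.5. CLDN4 stands farthest from 0 on the left, and no point is filled on the right.

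HOTAIR over empty vector gave small differences in these genes. In MCF10A none of the 8 was called, as against 3 of all genes (0.0218%), and 1 had an unadjusted p under 0.05, as had 7.28% of all genes. In DCIS.COM none was called, as against 12 of all genes (0.0871%), and 2 had an unadjusted p under 0.05, as had 17.5% of all genes. With limma-voom on the recovered reads none of the 8 was called in either line or in the interaction. In MCF10A the difference was below 0 for 7 of the 8 genes, although that of F11R turned positive with quantile normalization (0.011) or limma-voom (0.026), and TJP1 was at 0.06 (SE 0.10). With limma-voom the median over all genes in MCF10A moved as well, from -0.0055 to 0.030. In DCIS.COM 4 genes lay above and 4 below 0. Libraries did not overlap between the vectors for 5 of the 8 genes in MCF10A, where 47.2% of all genes did not, and for 6 of the 8 in DCIS.COM, where 49.2% did not.

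CLDN1 had the lowest p of the 8 in both lines, with opposite signs. In MCF10A both pCDH-HOTAIR libraries lay below both pCDH-empty libraries, with a difference of -0.33 log2 units (SE 0.10, 95% interval -0.56 to -0.10, limma adjusted p = 0.458). In DCIS.COM both pCDH-HOTAIR libraries lay above, by 0.29 (SE 0.10, 95% interval 0.06 to 0.52, limma adjusted p = 0.246). Without DCIS.COM pCDH-empty 2 this difference was 0.42, under the fold threshold, and without DCIS.COM pCDH-empty 1 it was 0.17. The absolute change was larger than that of 91.0% of all genes in MCF10A and 77.7% in DCIS.COM. The difference of the HOTAIR effect between the lines (interaction) was 0.63 for CLDN1 (SE 0.14, 95% interval 0.30 to 0.95, limma adjusted p = 0.275) and did not pass the adjusted threshold, where 6 of all genes (0.0436%) did. CLDN1 was the 1 gene of the 8 with an unadjusted interaction p under 0.05, as had 10.5% of all genes. Without DCIS.COM pCDH-empty 2 the CLDN1 interaction was 0.75 (adjusted p = 0.000971), but in that fit 4414 of all genes (32.1%) had a called interaction. Without DCIS.COM pCDH-empty 1 the CLDN1 interaction was 0.50 (adjusted p = 0.0668), with 89 of all genes (0.646%) called. Leaving out either of these 2 libraries also brought the adjusted p of the MCF10A difference to 0.042 with the difference itself at -0.33, since the groups share 1 estimate of spread.

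For CLDN4 the HOTAIR difference was -0.08 in MCF10A (SE 0.12, limma adjusted p = 0.971) and 0.23 in DCIS.COM (SE 0.12, adjusted p = 0.319). The 2 DCIS.COM pCDH-empty libraries differed by 0.37 in CLDN4, more than the HOTAIR difference there. Without DCIS.COM pCDH-empty 2 that difference was 0.42, under the fold threshold, and without DCIS.COM pCDH-empty 1 it was 0.05. The CLDN4 interaction was 0.31 (SE 0.16, adjusted p = 0.498), and without DCIS.COM pCDH-empty 2 it was 0.49 (adjusted p = 0.00356), in the fit where 32.1% of all genes had a called interaction. OCLN was at -0.18 in MCF10A (SE 0.10, adjusted p = 0.810) and -0.19 in DCIS.COM (SE 0.10, adjusted p = 0.337). CLDN7 was at -0.11 (SE 0.07, adjusted p = 0.823) and -0.12 (SE 0.07, adjusted p = 0.348), and MARVELD2 at -0.13 (SE 0.10, adjusted p = 0.892) and -0.12 (SE 0.10, adjusted p = 0.514). F11R was at -0.0081 in MCF10A (SE 0.07) and 0.16 in DCIS.COM (SE 0.07, adjusted p = 0.278). Without DCIS.COM pCDH-empty 1 the DCIS.COM difference of F11R was 0.22, under the fold threshold. TJP1 was at -0.12 in DCIS.COM (SE 0.10, adjusted p = 0.534), and CGN at -0.12 in MCF10A (SE 0.10, adjusted p = 0.901) and 0.15 in DCIS.COM (SE 0.10, adjusted p = 0.422). The 95% intervals of the HOTAIR effects reached from -0.56 (CLDN1 in MCF10A) to 0.52 (CLDN1 in DCIS.COM), so log2 differences beyond these values lay outside all of them.

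By group mean, OCLN, CLDN7 and MARVELD2 shared the order DCIS.COM pCDH-empty, DCIS.COM pCDH-HOTAIR, MCF10A pCDH-empty and MCF10A pCDH-HOTAIR, from high to low. In CLDN4, F11R and CGN the 2 DCIS.COM groups were exchanged, with pCDH-HOTAIR highest. TJP1 had its 2 MCF10A groups on top, pCDH-HOTAIR before pCDH-empty, and DCIS.COM pCDH-HOTAIR lowest. In these 7 genes the neighbours within a line did not differ past the thresholds, and the step in the order that crossed from one line to the other separated all libraries. In CLDN1 the order was MCF10A pCDH-empty, DCIS.COM pCDH-HOTAIR, MCF10A pCDH-HOTAIR and DCIS.COM pCDH-empty, so the lines alternated and the lowest 2 groups overlapped.

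Within each group the 8 genes were compared per kilobase of their MANE Select transcript, the reference transcript of each gene. On this scale CLDN7 had the highest level in every group, at 92.1 ± 3.44 CPM per kilobase (SD, n = 2) in MCF10A pCDH-empty, 85.1 ± 4.81 in MCF10A pCDH-HOTAIR, 116 ± 4.85 in DCIS.COM pCDH-empty and 106 ± 1.42 in DCIS.COM pCDH-HOTAIR. F11R was next in every group, at 59.7 ± 0.80, 59.4 ± 0.00028, 84.8 ± 5.58 and 94.5 ± 1.53 in the same order. CLDN4 was the fifth in both MCF10A groups, at 12.3 ± 0.14 and 11.7 ± 0.74, and the third in both DCIS.COM groups, at 61.1 ± 10.9 and 71.2 ± 1.31. It thus moved from below CLDN1 and TJP1 in MCF10A to above both in DCIS.COM.

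CLDN1 was at 25.7 ± 0.73, 20.4 ± 1.29, 18.9 ± 2.32 and 23.1 ± 1.65 CPM per kilobase in the same 4 groups, and TJP1 at 20.1 ± 2.81, 20.8 ± 0.52, 13.9 ± 1.10 and 12.8 ± 0.60. In MCF10A pCDH-HOTAIR the libraries of CLDN1 and TJP1 overlapped, so their order was not resolved. CGN was the sixth in every group, between 4.90 and 7.93 on average. MARVELD2 and OCLN were lowest, MARVELD2 between 3.17 and 4.42 and OCLN between 2.56 and 2.92 in MCF10A and between 5.21 and 5.97 in DCIS.COM. OCLN was thus below MARVELD2 in MCF10A and above it in DCIS.COM. With the union of all exons as length, OCLN was lowest in all 4 groups and F11R exceeded CLDN7 in 3 of them, so these orders depended on the transcript model.

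**Figure D3:**
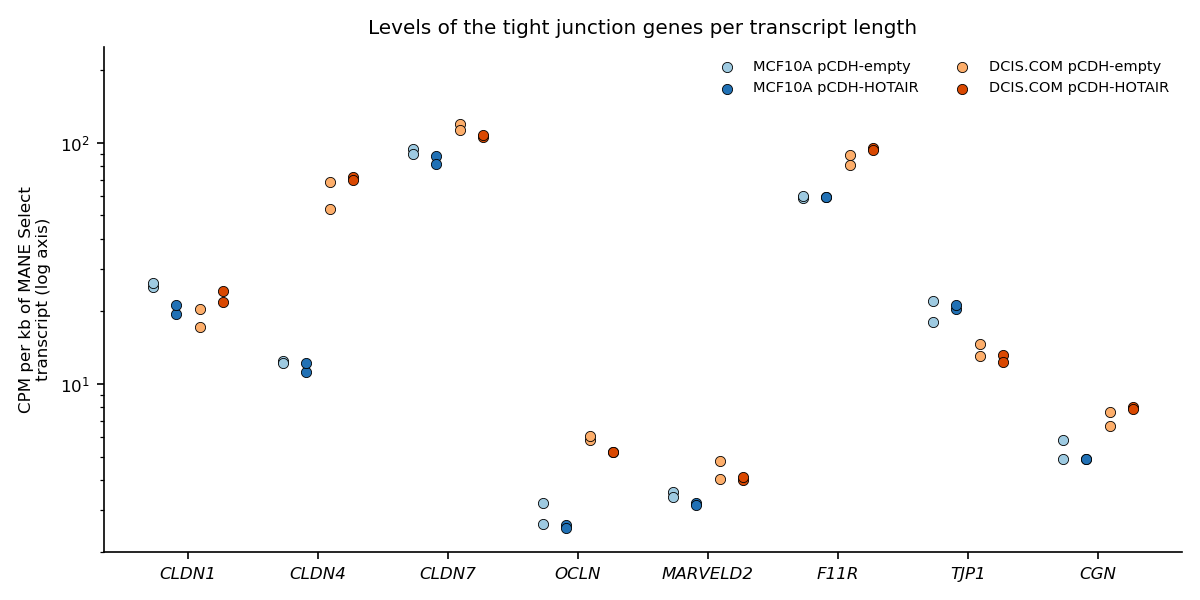
Level of each gene in CPM per kilobase of its MANE Select transcript (log axis), with 1 point for each library, coloured by group. CLDN7 and F11R are at the top in every group, CLDN4 sits among the middle genes in MCF10A and near the top in DCIS.COM, and OCLN, MARVELD2 and CGN lie under 10.

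The wider set of tight junction genes was examined with a list of 56 others, of which 37 were in the table, including 5 of 20 further claudins, 6 of 9 other membrane proteins, 9 of 10 scaffolds and all of the polarity and regulator genes. With the empty vector 20 of the 37 were called between the lines, 15 higher and 5 lower in DCIS.COM, with a median difference of 0.49. With the HOTAIR vector 20 were called, again 15 higher and 5 lower, with a median of 0.39. These counts are set beside the 46.3% and 43.7% of all genes called in the same comparisons, and the direction beside 22.5% and 22.0% called higher. The list was chosen with earlier results of these data known. Its counts, also those by role below, are therefore no test against the shares of all genes. Values in the next paragraphs are log2 differences of DCIS.COM over MCF10A, with the empty vector first and the HOTAIR vector second.

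Among the claudins, CLDN20 had 64 reads over the 2 DCIS.COM pCDH-empty libraries and 5 over the MCF10A pCDH-empty pair, a ratio of 13.0 in CPM (95% counting interval 5.29 to 41.4), and the ratio with the HOTAIR vector was 12.7 (4.78 to 47.5). CLDN8 was higher by 0.75 and 1.94, and CLDN23 by 0.70 and 0.93. Both had few reads, CLDN8 19 to 63 and CLDN23 13 to 22 in a library of MCF10A. CLDN12, a claudin without the usual PDZ-binding end, was lower at -1.65 and -1.24. The claudins thus included called genes in both directions, and CLDN15 was not called. In the other membrane proteins the called genes were all higher in DCIS.COM. CXADR, an adhesion receptor of epithelial junctions that also binds coxsackie and adenoviruses, was higher by 1.48 and 1.90. LSR, or angulin-1, which recruits tricellulin to tricellular contacts, was higher by 1.06 and 0.98. JAM3, of the same family as F11R, was called with the empty vector (0.85) and MARVELD3, the third MARVEL-domain junction protein, with the HOTAIR vector (0.72). JAM3 rested on few reads, 16 and 24 in MCF10A pCDH-empty and 36 and 37 in DCIS.COM pCDH-empty. With the HOTAIR vector JAM3 was at 0.25 (limma adjusted p = 0.451).

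Of the 9 scaffolds 3 were called with each vector, where 46.3% (empty vector) and 43.7% (HOTAIR vector) of all genes were called. MPDZ, a protein with many PDZ domains, had 0 reads in both MCF10A pCDH-empty libraries and 935 and 827 in DCIS.COM pCDH-empty, at least 597-fold higher against a floor of 3 reads over the group. With the HOTAIR vector it had 2 and 0 reads in MCF10A against 1078 and 975 in DCIS.COM, a ratio of 585 (95% counting interval 162 to 4831). TJP3, encoding ZO-3, was higher by 0.86 and 1.19, and TJAP1 was lower at -0.61 and -0.68. TJP1 and its relative TJP3 therefore differed in opposite directions between the lines.

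The polarity complex, in which PAR6 adaptors hold atypical protein kinase C near the junction, had 5 of its 7 genes called with each vector, all higher in DCIS.COM, where 22.5% and 22.0% of all genes were called higher. PARD6G was 4.50-fold and 3.99-fold higher, and log2 differences were 2.07 and 1.87 for PARD6A, 0.90 and 1.32 for PARD6B, 1.02 and 0.83 for PARD3B and 0.95 and 0.99 for the kinase gene PRKCZ. PARD6A and PARD6G had 21 to 38 reads in the MCF10A libraries. The other kinase gene PRKCI and the scaffold gene PARD3 were not called. Among 10 junction-associated regulators 5 were called with each vector, where 46.3% (empty vector) and 43.7% (HOTAIR vector) of all genes were called. AMOT, encoding the scaffold angiomotin, had 0 and 1 reads in MCF10A pCDH-empty and 608 and 505 in DCIS.COM pCDH-empty, a ratio of 1131 (95% counting interval 203 to 44709), and with the HOTAIR vector it was at least 262-fold higher against the floor of 3 reads. Its relative AMOTL1 was lower in DCIS.COM at -1.06 and -1.21, so AMOT and AMOTL1 differed in opposite directions. Another relative, AMOTL2, was not called, at 0.28 and -0.15. ARHGEF2, encoding a guanine nucleotide exchange factor found at tight junctions, was higher by 1.01 and 0.67. ARHGAP17, which inactivates Cdc42, was lower at -0.77 and -1.25, and RAB13, a GTPase of junctional vesicle traffic, at -0.59 and -0.61.

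**Figure D4:**
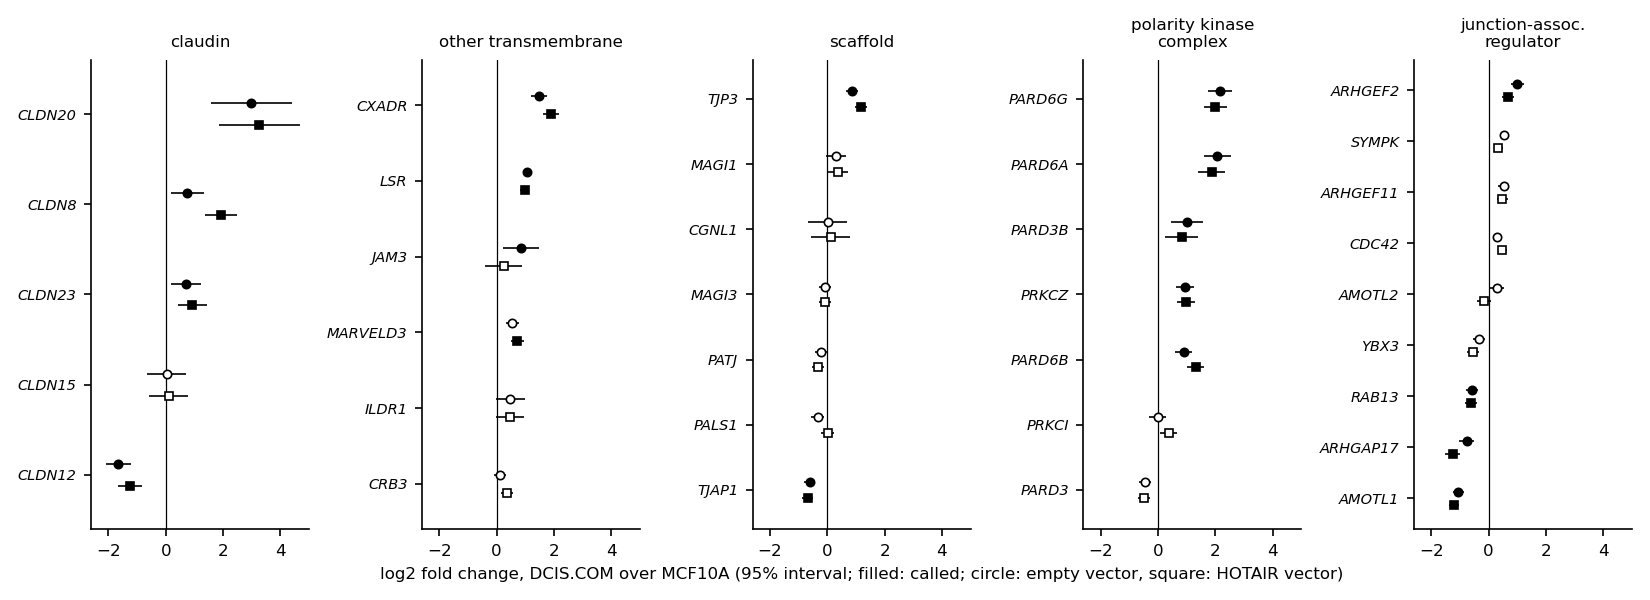
Log2 fold change of DCIS.COM over MCF10A with its 95% interval (limma) for other tight junction genes, by role, with circles for the empty vector, squares for the HOTAIR vector and filled symbols for called genes. MPDZ and AMOT are not drawn because they had between 0 and 2 reads in each MCF10A library. Polarity and membrane genes lie mostly to the right of 0, and CLDN12, AMOTL1 and ARHGAP17 to the left.

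HOTAIR over empty vector changed none of these 37 genes past the thresholds in either line, and no interaction was called. An unadjusted limma p under 0.05 was reached by 4 genes in MCF10A and 8 in DCIS.COM, beside 7.28% and 17.5% of all genes, and by 7 for the interaction, beside 10.5%. The 4 in MCF10A, named after their values were seen, were TJP3 at -0.40, RAB13 at 0.31, CLDN8 at -0.63 and CRB3, which encodes an apical polarity protein, at -0.22, with adjusted p from 0.305 to 0.657. RAB13 was at 0.30 in DCIS.COM as well (adjusted p = 0.229). Without DCIS.COM pCDH-empty 2 there were 2 calls in DCIS.COM and 11 interactions among the 37 genes, in a fit that called 1403 of all genes (10.2%) for HOTAIR in DCIS.COM and 32.1% for the interaction, so neither count exceeded its background.

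Among transcription factors known to act on epithelial junction genes, SNAI2, ZEB1 and ZEB2 had larger absolute differences between the lines than any of the 8 junction genes. Of the 10 listed, 9 were called with the empty vector, 2 higher and 7 lower in DCIS.COM, and 8 with the HOTAIR vector, 1 higher and 7 lower. Over all genes 46.3% and 43.7% were called, 23.8% and 21.7% lower. The list was chosen with earlier results of these data known, so these counts are no test against the shares of all genes. SNAI2, encoding the repressor Slug, was at 6.30 and 6.54 log2 CPM in MCF10A pCDH-empty, 6.60 and 6.88 in MCF10A pCDH-HOTAIR, 2.52 and 2.47 in DCIS.COM pCDH-empty, and 2.78 and 2.96 in DCIS.COM pCDH-HOTAIR. Its difference between the lines was -3.92 (SE 0.13, limma adjusted p = 8.22e-08) and -3.87 (SE 0.13, adjusted p = 8.88e-08).

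ZEB1 had 177, 156, 142 and 180 reads in the MCF10A libraries and 4, 9, 11 and 8 in DCIS.COM, a CPM ratio of MCF10A over DCIS.COM of 25.2 (95% counting interval 14.5 to 47.8) with the empty vector and 29.8 (18.7 to 50.1) with the HOTAIR vector. ZEB2 had 521, 474, 510 and 460 reads in MCF10A and 1, 3, 0 and 1 in DCIS.COM, a ratio of 245 (95.3 to 900) with the empty vector and 1703 (305 to 67338) with the HOTAIR vector. Both were thus close to the detection limit in DCIS.COM. SNAI1, encoding Snail, was lower in DCIS.COM at -1.06 and -1.40, and TWIST1 at -0.64 and -0.80. OVOL1 and OVOL2, which encode repressors of mesenchymal genes, were also lower, OVOL1 at -0.86 and -0.93 and OVOL2 at -1.10 and -0.98. The 7 genes that were lower therefore held factors with opposing reported roles.

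Of the Grainyhead-like genes, GRHL1 was at 4.78 and 4.67 log2 CPM in MCF10A pCDH-empty, 4.74 and 4.63 in MCF10A pCDH-HOTAIR, 6.15 and 6.31 in DCIS.COM pCDH-empty, and 6.37 and 6.41 in DCIS.COM pCDH-HOTAIR. It was 2.83-fold higher in DCIS.COM with the empty vector (limma adjusted p = 1.43e-06) and 3.26-fold with the HOTAIR vector (adjusted p = 7.07e-07). GRHL2 was at 0.18 (SE 0.07, adjusted p = 0.0560) and 0.29 (SE 0.07, adjusted p = 0.00919), neither called. GRHL3 was called with the empty vector (0.85, adjusted p = 0.0199) and not with the HOTAIR vector (0.59, adjusted p = 0.0775). None of the 10 was called for HOTAIR over empty vector in either line, and 2 in each line had an unadjusted p under 0.05, beside 7.28% of all genes in MCF10A and 17.5% in DCIS.COM. These were SNAI2 in both lines (0.32 in MCF10A, adjusted p = 0.615, and 0.38 in DCIS.COM, adjusted p = 0.246), GRHL2 in MCF10A (-0.21, adjusted p = 0.581) and ZEB2 in DCIS.COM, where it had at most 3 reads in a library. The part of these factors in the levels of the junction genes was not tested.

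**Figure D5:**
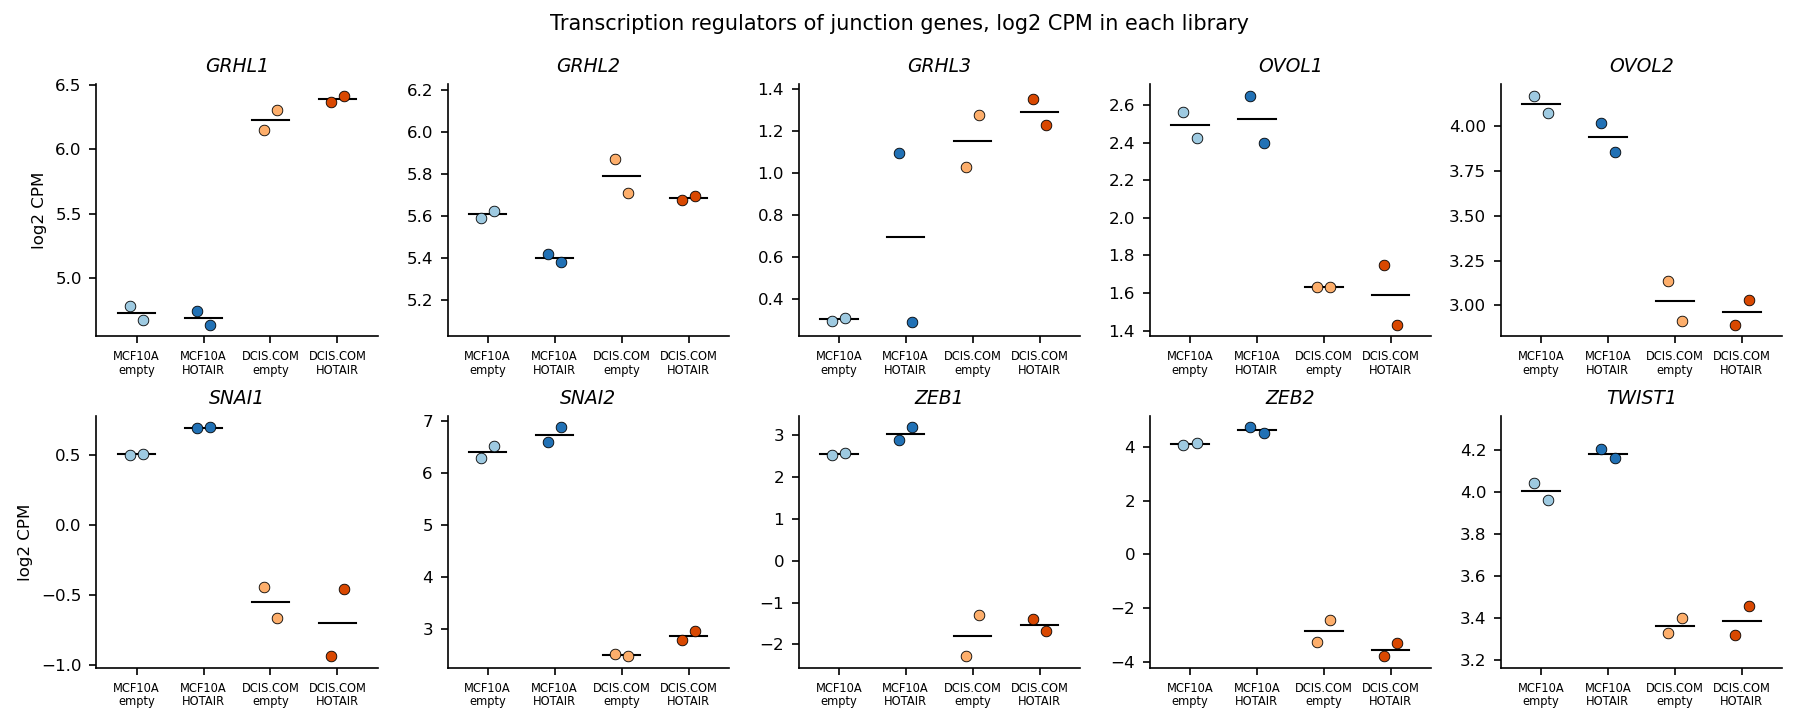
Level of the 10 transcription factor genes in log2 CPM (vertical axis, scaled separately for each gene), with 1 point for each library and a line at the mean of each group. In SNAI2, ZEB1 and ZEB2 all MCF10A points lie above all DCIS.COM points, while GRHL1 is higher in DCIS.COM.

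For 7 of the 8 genes, the gene outside the set with the most similar profile over the 8 libraries is given here, chosen by the smallest root mean square difference of log2 CPM, with each gene centred on its own mean. The nearest gene was PRSS12 for CLDN4 (0.086 log2 units) and KPNA5 for CLDN1 (0.079). It was RPS19BP1 for CLDN7 (0.025), MRPS26 for MARVELD2 (0.036), H3-3A for F11R (0.040), TUFT1 for TJP1 (0.042) and CLINT1 for CGN (0.060). The 8 libraries come from 2 lines and share their group structure, so these values are a description.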

How the data were processed

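RNA from MCF10A and DCIS.COM cells with pCDH-empty or pCDH-HOTAIR was sequenced, 2 libraries in each of the 4 groups. The methods of the study and the submitters' processing notes name ScriptSeq libraries, the aligner Rsubread with the hg19 genome, featureCounts with the UCSC known genes, and edgeR for normalization. The authors deposited log2 CPM values for 13771 genes. How strand and multiply mapped reads were handled is not given in the sources used here. Whole reads were recovered from the steps of the values, which began at a prior of 0.0717 CPM, for 100% of values within a tolerance of 0.05 read. Intervals and floors from reads cover counting error only.

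The fit over all genes used R 4.3.3 and limma 3.58.1 (a mean for each of the 4 groups, eBayes with trend), and p-values were adjusted by Benjamini-Hochberg over 13771 genes. The fold changes are on the deposited log2 scale. Calls required an adjusted p below 0.05 and at least a 1.5-fold difference, without the fold threshold for the interaction. The fit was tested on simulated data. The members and the gene lists were chosen with earlier results of these data known. Named were HOTAIR, the 8 genes, called genes of the pathway list (the 10 with the largest change in each comparison by rule, the others after their values were seen), all listed transcription factors, the nearest gene of each member, and overlapping genes. Some results under these rules are not reported here.

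Transcript lengths, GC content and positions came from GENCODE release 44 on GRCh37, since the table holds no gene lengths. GC content was known for 95.48% of genes. The alternatives were median centring, quantile normalization, a pseudocount of 1 CPM, a mean CPM of at least 2, no trend, limma-voom on recovered reads, loess correction for GC content (span 0.4), the replicate number as a block, other fold thresholds, and each library left out. Other steps used Python 3.11.15 with scipy 1.17.1, pandas 2.3.3 and numpy 2.4.6.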

Additional observations from a re-analysis of the deposited data

How the results depend on the processing

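The 2 libraries of a group limit every p-value, and with a library left out the remaining one is assumed to vary like the other groups. Between the lines, the direction of all 8 genes was the same under every alternative, and the calls of CLDN4 and OCLN with both vectors and of F11R, TJP1 and CGN with the HOTAIR vector were made under each alternative to the data or the fit. The fold threshold decided most other calls. Without it all 8 genes were called between the lines with the empty vector, at an adjusted limma p under 0.05. In that comparison 71% of all genes had an unadjusted limma p under 0.05, a looser threshold than the adjusted one. With a fold change of at least 2 the number was 2 with the HOTAIR vector. The same stricter threshold left 11 (empty vector) and 12 (HOTAIR vector) of the other junction genes and 5 transcription factors (HOTAIR vector). Shares of all genes called at these changed thresholds are not given here. With the empty vector 3714 and with the HOTAIR vector 3589 of all genes had a larger absolute difference than OCLN, at 1.04 and 1.02. With 1 library left out, TJP1 passed the fold threshold with the empty vector in 2 of the cases given above. The number of the 8 genes with a called interaction ran from 0 to 2, the other junction genes from 0 to 2 (HOTAIR in DCIS.COM) and 0 to 11 (interaction), and the transcription factors from 0 to 1 in both. In each of these the highest number came without DCIS.COM pCDH-empty 2, where 1403 of all genes (10.2%) were called for HOTAIR in DCIS.COM and 4414 (32.1%) for the interaction. Without DCIS.COM pCDH-empty 1 these were 60 and 89. The cause was not tested.

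Differences near 0 changed sign. F11R with HOTAIR in MCF10A was 0.011 after quantile normalization and 0.026 with limma-voom. With limma-voom the median over all genes also rose, from -0.0055 to 0.030 there and from 0.0085 to 0.026 for the interaction. The CLDN7 interaction was 0.0027 after quantile normalization, 0.011 with limma-voom and 0.096 after GC correction, the OCLN interaction 0.0020 with limma-voom, and the MARVELD2 interaction -0.010 after median centring, -0.0020 after quantile normalization and -0.037 after GC correction. With 1 library left out, the HOTAIR difference in MCF10A ran from -0.022 to 0.0056 for F11R, from -0.086 to 0.20 for TJP1 and from -0.25 to 0.0010 for CGN. That of MARVELD2 in DCIS.COM ran from -0.25 to 0.0047. Interactions ran from -0.068 to 0.047 for CLDN7, from -0.16 to 0.13 for OCLN and from -0.11 to 0.14 for MARVELD2.

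The replicate numbers did not pair the libraries, since deviations from the group means of libraries with the same number correlated between -0.016 and 0.066. With the replicate block, 2 and 5 of the 8 genes were called between the lines, 20 and 20 of the other junction genes and 9 and 8 transcription factors, as without it, and 0 in each for HOTAIR over empty vector and the interaction. The CLDN1 interaction was 0.63 with the block (adjusted p = 0.163). Over all genes, HOTAIR in DCIS.COM gave 12 calls without and 20 with the block and 49 after GC correction, HOTAIR in MCF10A 3, 2 and 11, and the interaction 6, 0 and 21, with 0 interactions by limma-voom.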
